A study of Drosophila melanogaster with 8 samples.

Results

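The mitochondrial ribosome of the *Drosophila* testis was examined through the genes whose FlyBase symbol starts with mRpL, a name given for the large subunit, or mRpS, a name given for the small subunit. The symbol table used here holds 73 such genes, and 71 of them matched the 14256 genes of the count table by FlyBase identifier. They comprised 47 mRpL and 24 mRpS genes. *mRpS34* and *mRpS5* did not match and are not analysed here. The members were chosen by name, and no measured value entered the choice.

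RNA-seq was made from whole testes, germ cells included, of adult males 5 days old, with 1 pair of testes in each library. The control genotype, *Tj-Gal4*, carried the driver without an shRNA transgene (2 libraries). The knockdown genotype, *Tj>E(Pc) shRNA*, carried the same driver and an shRNA transgene against *Enhancer of Polycomb*, *E(Pc)*, which encodes a chromatin protein of the Tip60 histone acetyltransferase complex (2 libraries). The driver acts in somatic cells, mainly the cyst lineage that encloses the germ cells, so the RNA sampled includes that of cells it does not target. The comparison asks which genes of the mitochondrial ribosome differed between testes of the 2 genotypes, and the 4 ChIP-seq samples of the series were not analysed.

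Mitochondria carry their own ribosomes, which translate the few proteins encoded by the mitochondrial genome, all of them subunits of the respiratory chain and ATP synthase. The ribosomal RNAs of these ribosomes come from the mitochondrial genome, whereas every ribosomal protein is encoded in the nucleus, translated in the cytoplasm and imported. Some of the proteins are relatives of bacterial ribosomal proteins and others occur in mitochondria alone. In the testis, mitochondria of the spermatid fuse into the nebenkern and then elongate along the flagellum.

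Total counts were 3307767 and 4273908 in libraries 1 and 2 of *Tj-Gal4*, and 6251181 and 3691459 in libraries 1 and 2 of *Tj>E(Pc) shRNA*, so the deepest library was a *Tj>E(Pc) shRNA* one. *E(Pc)* itself was not lower in the libraries of that label. It had 274 and 276 CPM (counts scaled to a common library size with TMM factors) in *Tj-Gal4* and 406 and 338 CPM in the libraries that carry the shRNA label, a log2 fold change of 0.44 ± 0.18 (SE, adjusted p = 0.083 by edgeR's quasi-likelihood test). *tj*, the cyst lineage gene from which the driver takes its name, had 7.38 and 8.38 CPM against 10.1 and 7.94 CPM (log2 0.21, edgeR adjusted p = 0.615). In whole testes the value of *E(Pc)* does not measure its level in cyst cells, and the libraries of the second genotype are therefore called shRNA-labelled. The highest number of counts per base of any gene lay between 0.924 and 0.965 in the 4 libraries, which differ in depth. Whether reads at the same position were counted once is not stated for RNA-seq in the sources used here.

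Some cell type markers also differed between the genotypes. Over all genes tested, 22.5% were called higher and 11.4% lower, and these short lists were not tested against those shares. The early germline genes *bam*, *zpg*, *aub* and *ovo* were called higher, 4 of the 6 tested. The summed level of the 6 was 352 and 318 CPM in *Tj-Gal4* against 528 and 526 CPM in the shRNA-labelled libraries. The 10 spermatid markers all had a negative change, with a median (log2) of -0.45, and 2 were called lower. Their summed levels were 1695 and 1316 CPM against 867 and 1330 CPM. They were densely covered, from 0.406 (*ProtA*) to 0.806 (*Mst84Db*) counts per base. Among all genes tested at 0.5 to 1.1 counts per base, 18.2% were called lower, with a median of -0.42. At 0.3 to 0.5 these values were 24.3% and -0.28. The part of read density in the spermatid values was not tested. The 5 cyst markers summed to 232 and 260 CPM against 268 and 194 CPM, with *zfh1* called higher, *so* called lower and the other 3 not called. Of 4 hub markers 3 were called lower. The 8 spermatocyte markers summed to 1198 and 1134 CPM against 1160 and 1197 CPM, with 3 called higher and 1 lower. Of 4 muscle sheath markers 1 was called lower, of 2 tested for the ejaculatory bulb and duct 1 was called higher and 1 lower, 1 tested for the fat body was called higher, and 1 tested for the accessory gland was not called. No marker of these lists was at 0 in every library. The early germline genes *vas* and *nos*, *Mhc* of the muscle sheath and *Acp70A* of the accessory gland were also planned as markers but gave no values here. In whole testes, fewer cells of a type and less RNA per cell cannot be told apart, and the part of cell composition in the results that follow was not tested.

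Most mRp genes were somewhat higher in the shRNA-labelled libraries than in *Tj-Gal4*, and their median was higher in both of them. Their median level was 29.3 and 32.0 cRPKM in *Tj-Gal4* and 43.0 and 47.3 cRPKM in the shRNA-labelled libraries. The cRPKM is the authors' read level scaled to the length of the merged transcript and to a common library size. The means of these medians were 30.6 ± 1.92 and 45.2 ± 3.0 cRPKM (SD, n = 2 each), and the genotypes did not overlap. The summed level of all 71 genes differed less, with 2269 and 2370 CPM in *Tj-Gal4* and 2814 and 3019 CPM in the shRNA-labelled libraries, a ratio of 1.26. They took 0.214% and 0.238% of the counts in *Tj-Gal4* and 0.298% in each of the shRNA-labelled libraries.

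The spread of levels among the genes was smaller in the shRNA-labelled libraries. In *Tj-Gal4* 1 the members ran from 8.48 to 119 cRPKM, and in *Tj-Gal4* 2 from 16.1 to 118 cRPKM. The range was 16.3 to 85.8 cRPKM in shRNA-labelled library 1 and 20.8 to 87.4 cRPKM in library 2. The SD of log2(cRPKM + 1) across the 71 genes was 0.738 and 0.669 in *Tj-Gal4* against 0.468 and 0.499 in the shRNA-labelled libraries. Across 11282 genes with a mean of at least 1 cRPKM this SD was 1.92 and 1.81 against 1.60 and 1.83. The difference in spread between genotypes was not tested.

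**Figure D1:**
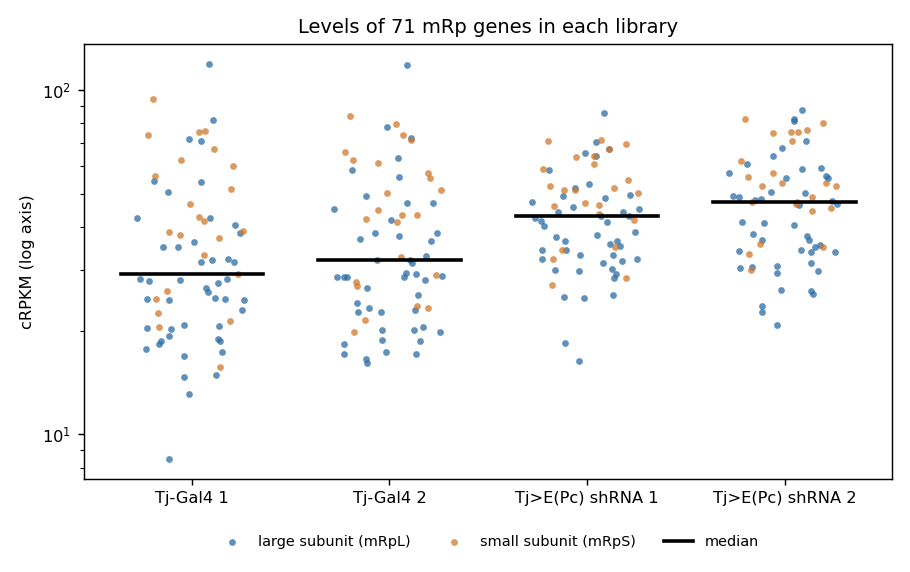
Level of each of the 71 mRp genes in each of the 4 libraries, in cRPKM on a log axis, with large subunit genes in blue, small subunit genes in orange and the median as a black bar. The median lies at 29.3 and 32.0 cRPKM in Tj-Gal4 and at 43.0 and 47.3 cRPKM in Tj>E(Pc) shRNA, where the lowest genes sit higher and the highest genes sit lower.

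Across the 71 genes, all of which passed the filter on low counts, 24 were called higher in the shRNA-labelled libraries (33.8%) and 1 lower at an adjusted p under 0.05, with edgeR's quasi-likelihood test and Benjamini-Hochberg adjustment over all 11163 genes tested. Among all genes tested, 22.5% were called higher and 11.4% lower. The remaining 46 mRp genes were not called. The fitted log2 fold change was positive in 61 of the 71 (50.1% of all genes tested were positive) and negative in 10, with a median of 0.39 against 0.00 over all genes tested. In 55 mRp genes both shRNA-labelled libraries were higher than both controls, and in 8 they were lower than both, where all genes tested gave 38.9% and 33.8%. The change was small for single genes, with a range from -0.45 to 1.38, and it was above 1 in *mRpL1* alone, against 9.19% of all genes tested.

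By their medians, replicates of a genotype differed less than the genotypes did. Over the 71 genes the median log2 ratio of *Tj-Gal4* 2 to *Tj-Gal4* 1 was 0.11, and that of library 2 to shRNA-labelled library 1 was 0.08. Single members of low count varied more, up to 0.89 between the controls. Over all genes with counts, 739 differed beyond counting error between the controls and 4043 between the shRNA-labelled libraries (binomial test, Benjamini-Hochberg adjusted p under 0.05). The replicates of the second genotype thus differed in far more genes.

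**Figure D2:**
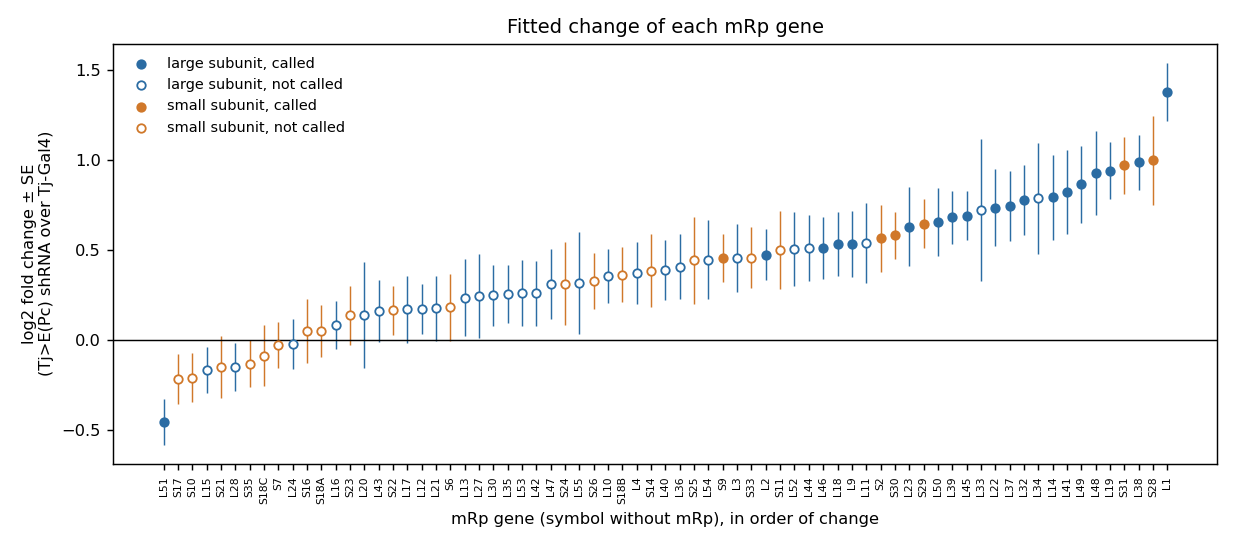
Fitted log2 fold change of each mRp gene, shRNA-labelled libraries over Tj-Gal4, in order of size, with its standard error as a bar, filled symbols for called genes and open symbols for the others. The values run from -0.45 for mRpL51 to 1.38 for mRpL1, and 61 of the 71 lie above 0.

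The member with the largest rise was *mRpL1* (FBgn0037566, chromosome 3R), which encodes the protein of the L1 stalk, the mobile arm through which spent tRNA leaves the ribosome. It had 72 and 96 counts, or 23.1 and 22.3 CPM, in *Tj-Gal4* and 364 and 232 counts, or 55.0 and 63.6 CPM, in the shRNA-labelled libraries. The mean level was 17.4 ± 0.442 cRPKM in *Tj-Gal4*, among the 5 lowest members, and 45.4 ± 5.21 cRPKM in the shRNA-labelled libraries (SD, n = 2 each). The genotypes stood far apart, and the gene rose 2.60-fold, a log2 fold change of 1.38 ± 0.16 (SE, edgeR adjusted p = 0.000358).

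A pair of members from the central protuberance, a landmark of the large subunit in which mammalian mitochondria place several proteins of their own, rose by nearly the same factor. *mRpL38* (FBgn0030552, chromosome X) had 26.0 and 27.9 CPM in *Tj-Gal4* and 54.8 and 52.0 CPM in the shRNA-labelled libraries, a 1.98-fold rise (log2 0.99 ± 0.15, edgeR adjusted p = 0.0012). *mRpL48* (FBgn0031357, chromosome 2L) had 12.5 and 16.8 CPM against 26.0 and 30.7 CPM, a 1.90-fold rise (log2 0.93 ± 0.23, edgeR adjusted p = 0.0132). In both genes the lower shRNA-labelled library was above the higher control. Without *Tj-Gal4* 1 the log2 fold change of *mRpL48* was 0.73 and its call was lost, as were most calls of mRp genes in that fit. *mRpL46*, another protein of this region in mammals, had 23.7 and 25.8 CPM against 35.5 and 35.3 CPM and rose by 0.51 ± 0.17 (log2, edgeR adjusted p = 0.0452), while *mRpL40*, with 27.6 and 30.3 CPM against 36.6 and 39.7 CPM, was not called (0.39 ± 0.17, edgeR adjusted p = 0.0929). *mRpL46* was called in 9 of 13 fits of all 4 libraries and in neither fit without a control library, and these 2 genes were named after their values were seen.

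*mRpL19* (FBgn0037608, chromosome 3R), a relative of bacterial L19, had 30.8 and 35.1 CPM in *Tj-Gal4* and 57.9 and 70.1 CPM in the shRNA-labelled libraries. It rose 1.92-fold (log2 0.94 ± 0.16, edgeR adjusted p = 0.00185). The RefSeq annotation lists no gene that overlaps *mRpL19* or *mRpL38*.

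In the small subunit, *mRpS31* and *mRpS28* rose most. *mRpS31* (FBgn0036557, chromosome 3L), a protein without a bacterial relative, had 27.9 and 36.5 CPM in *Tj-Gal4* and 63.4 and 64.1 CPM in the shRNA-labelled libraries, a 1.96-fold rise (log2 0.97 ± 0.16, edgeR adjusted p = 0.00159). *mRpS28* (FBgn0034361, chromosome 2R), named in mammals as the relative of bacterial S1, had 11.5 and 17.2 CPM against 26.3 and 32.6 CPM, a 1.99-fold rise (log2 1.0 ± 0.25, edgeR adjusted p = 0.0128). The genotypes did not overlap in either gene. The control replicates of *mRpS28* were themselves 36 and 74 counts, and without *Tj-Gal4* 1 its adjusted p was 0.0925.

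These 6 genes, *mRpL1*, *mRpL38*, *mRpL48*, *mRpL19*, *mRpS31* and *mRpS28*, were the members called at an adjusted p under 0.05 in each of the 13 fits of all 4 libraries. At an adjusted p under 0.01 the calls of *mRpL48* and *mRpS28* were lost, which leaves 4. The other 18 called higher had log2 fold changes of 0.45 to 0.86. Among them, in falling order, were *mRpL49* (0.86), *mRpL41* (0.82), *mRpL14* (0.79), *mRpL32* (0.78) and *mRpL37* (0.74).

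**Figure D3:**
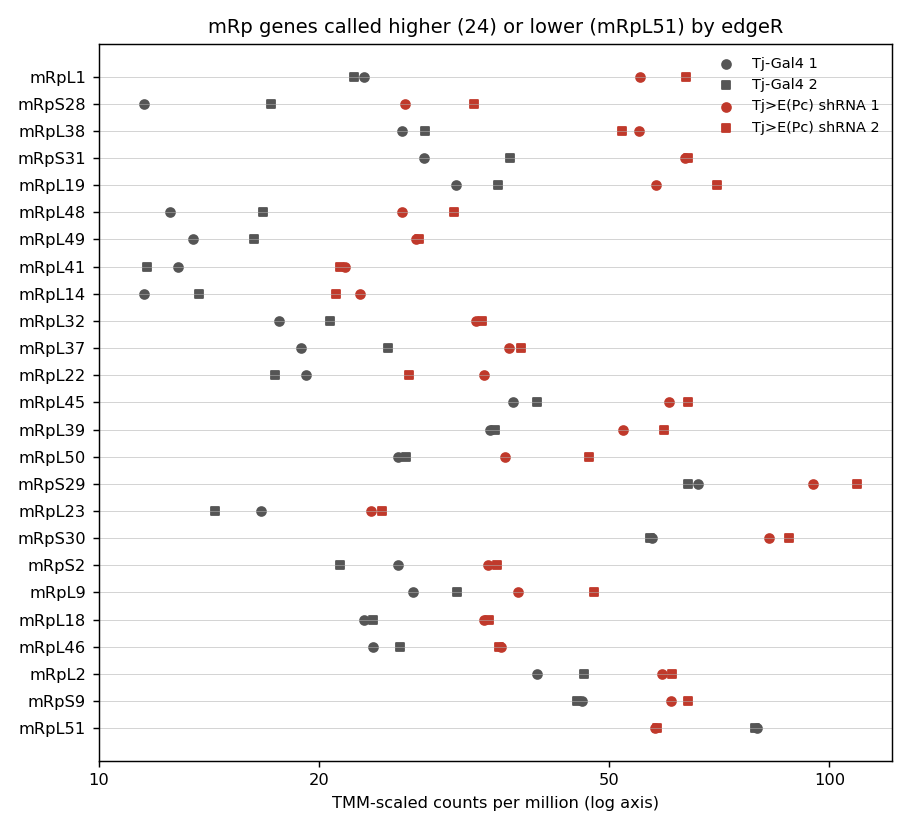
Level of each called mRp gene in each library, in TMM-scaled CPM on a log axis, with the 2 Tj-Gal4 libraries in grey and the 2 shRNA-labelled libraries in red. In the 24 genes called higher both red symbols lie to the right of both grey symbols, and mRpL51 alone shows the opposite, with 79.5 and 79.1 CPM in Tj-Gal4 against 57.7 and 58.1 CPM.

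The only member called lower was *mRpL51* (FBgn0032053, chromosome 2L), a large subunit protein without a bacterial relative. It had 79.5 and 79.1 CPM in *Tj-Gal4* and 57.7 and 58.1 CPM in the shRNA-labelled libraries, with replicates nearly equal. It was the highest member per length in *Tj-Gal4*, with 119 ± 0.579 cRPKM against 86.6 ± 1.13 cRPKM (SD, n = 2 each), and also the member with the most counts per base, 0.474 on average. The log2 fold change fell by 0.45 ± 0.13 (SE, edgeR adjusted p = 0.0212). The call was lost with DESeq2, with library size alone, with a length trend removed, with limma on cRPKM and without either control library.

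The other members of the top 5 by cRPKM in *Tj-Gal4* were not called. *mRpS17*, a relative of bacterial S17, had 71.5 and 63.8 CPM in *Tj-Gal4* and 54.5 and 62.2 CPM in the shRNA-labelled libraries, or 89.2 ± 7.44 cRPKM against 76.8 ± 8.06 cRPKM (SD, n = 2 each; log2 -0.22 ± 0.14, edgeR adjusted p = 0.234). *mRpS21*, a relative of bacterial S21, had 32.7 and 34.4 CPM against 28.4 and 32.6 CPM, or 77.5 ± 2.79 against 70.1 ± 7.90 cRPKM (log2 -0.15 ± 0.17, edgeR adjusted p = 0.507). *mRpL28* had 99.1 and 88.7 CPM against 82.8 and 86.3 CPM, or 77.2 ± 6.22 against 69.4 ± 2.67 cRPKM (log2 -0.15 ± 0.13, edgeR adjusted p = 0.38). In all 3 both shRNA-labelled libraries were below both controls, by about the size of the spread between replicates. Of all genes tested, 33.8% were below both controls in this way. *mRpS21*, *mRpL28* and *mRpS7* are neighbours in the order of levels that cannot be told apart. *mRpS7*, whose bacterial relative organises the head of the small subunit, had 64.1 and 62.4 CPM against 60.7 and 63.3 CPM, and its libraries overlapped (log2 -0.03 ± 0.13, edgeR adjusted p = 0.871).

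At the other end, *mRpL33* was the member with the fewest counts, 9 and 23 in *Tj-Gal4* and 43 and 28 in the shRNA-labelled libraries. Its level was 12.3 ± 5.36 against 20.6 ± 2.98 cRPKM (SD, n = 2 each), and at this depth it was not called (log2 0.72 ± 0.39, edgeR adjusted p = 0.168). *mRpL37*, a protein that mammalian mitochondria have and bacteria lack, had 18.9 and 24.9 CPM in *Tj-Gal4* and 36.4 and 37.8 CPM in the shRNA-labelled libraries. It rose by 0.74 ± 0.19 (log2, edgeR adjusted p = 0.0155). *mRpL20*, whose bacterial relative acts in early assembly of the large subunit, had 8.98 and 11.4 CPM against 10.3 and 12.6 CPM, and its libraries overlapped (log2 0.14 ± 0.30, edgeR adjusted p = 0.734). With *mRpL1* and *mRpL48*, of the 5 lowest members in *Tj-Gal4* 3 were called higher. Of all genes tested, 36.2% were called higher at 0.1 to 0.2 counts per base and 45.4% at 0.05 to 0.1. The orders of highest and lowest members come from the same *Tj-Gal4* libraries that enter the fold change. Such a choice favours falls among the highest and rises among the lowest, so these numbers are descriptions.

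Proteins around the catalytic centre gave small changes. *mRpL2*, whose bacterial relative lies close to the peptidyl transferase centre, had 39.8 and 46.1 CPM in *Tj-Gal4* and 59.1 and 60.8 CPM in the shRNA-labelled libraries and rose by 0.47 ± 0.14 (log2, edgeR adjusted p = 0.0272). *mRpL3* had 25.3 and 21.9 CPM against 33.2 and 31.0 CPM and was not called (0.45 ± 0.19, edgeR adjusted p = 0.0811). *mRpL16* had 48.4 and 51.9 CPM against 52.6 and 54.0 CPM (0.08 ± 0.13, edgeR adjusted p = 0.648). *mRpL27* had 14.1 and 16.1 CPM against 17.4 and 18.6 CPM (0.24 ± 0.24, edgeR adjusted p = 0.427). All 4 had both shRNA-labelled libraries above both controls, as did 77.5% of all mRp genes and 38.9% of all genes tested. The call was limited to *mRpL2*.

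The stalk that recruits translation factors is built on *mRpL10* and *mRpL11* and carries copies of *mRpL12*. *mRpL10* had 33.7 and 35.4 CPM in *Tj-Gal4* and 42.9 and 45.7 CPM in the shRNA-labelled libraries (log2 0.35 ± 0.15, edgeR adjusted p = 0.0912). *mRpL11* had 18.6 and 15.6 CPM against 26.6 and 22.5 CPM (log2 0.54 ± 0.22, edgeR adjusted p = 0.0817). *mRpL12* had 56.4 and 50.5 CPM against 56.5 and 64.1 CPM (log2 0.17 ± 0.14, edgeR adjusted p = 0.348). No stalk gene was called. In each of them both shRNA-labelled libraries were above both controls, as in 77.5% of all mRp genes and 38.9% of all genes tested.

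The exit tunnel, through which the new chain leaves, is lined in bacteria by L22, L23 and L24. *mRpL22* had 19.2 and 17.5 CPM in *Tj-Gal4* and 33.7 and 26.6 CPM in the shRNA-labelled libraries and rose by 0.73 ± 0.21 (log2, edgeR adjusted p = 0.0244). *mRpL23* had 16.7 and 14.4 CPM against 23.6 and 24.4 CPM and was just inside the threshold (0.63 ± 0.22, edgeR adjusted p = 0.0488), with an adjusted p of 0.101 under a replicate block. *mRpL24* had 46.2 and 45.1 CPM against 45.5 and 44.1 CPM, with overlap between genotypes (-0.02 ± 0.14, edgeR adjusted p = 0.902). *mRpL45*, which in mammals lies at the tunnel exit and faces the inner membrane, had 36.9 and 39.8 CPM against 60.3 and 64.1 CPM and rose by 0.69 ± 0.14 (edgeR adjusted p = 0.00463). The tunnel genes thus ranged from no detectable change in *mRpL24* to a 1.66-fold rise in *mRpL22*.

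*mRpS29*, the GTP-binding protein known in mammals as DAP3, had 66.1 and 64.0 CPM in *Tj-Gal4* and 94.9 and 109 CPM in the shRNA-labelled libraries and rose by 0.64 ± 0.14 (log2, edgeR adjusted p = 0.00599). *mRpS30*, which in mammals is part of the large subunit despite its name, had 57.1 and 56.8 CPM against 82.6 and 87.9 CPM and rose by 0.58 ± 0.13 (log2, edgeR adjusted p = 0.00784). Both calls were lost with DESeq2 (adjusted p = 0.0509 and 0.0862), without *Tj-Gal4* 1 (edgeR adjusted p = 0.0724 and 0.107) and without *Tj-Gal4* 2 (edgeR adjusted p = 0.0673 and 0.0802).

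The paralogs related to bacterial S18, *mRpS18A*, *mRpS18B* and *mRpS18C*, were not called. *mRpS18A*, which in mammals is found in the large subunit, had 42.0 and 44.4 CPM against 42.6 and 47.4 CPM (log2 0.05 ± 0.14, edgeR adjusted p = 0.812). *mRpS18B* had 33.0 and 36.1 CPM against 44.3 and 44.9 CPM (log2 0.36 ± 0.15, edgeR adjusted p = 0.0843). *mRpS18C* had 34.0 and 31.4 CPM against 31.1 and 30.1 CPM (log2 -0.09 ± 0.17, edgeR adjusted p = 0.697). The shRNA-labelled libraries lay above both controls in *mRpS18B*, below both in *mRpS18C* and among them in *mRpS18A*, and differences between the paralogs were not tested.

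Taken by subunit, 18 of 47 mRpL genes (38.3%) were called higher with a median change (log2) of 0.45, and 6 of 24 mRpS genes (25%) with a median of 0.32. The share over all genes tested was 22.5%, so that of the mRpS genes was close to it. The mRpS genes were more densely covered, with a median of 0.231 counts per base of merged exon against 0.157 for the mRpL genes. Among all genes tested, 12.6% were called higher at 0.2 to 0.3 counts per base and 36.2% at 0.1 to 0.2. The part of read density in the difference between subunits was not tested. The change was positive in 43 of 47 mRpL genes and in 18 of 24 mRpS genes. The split follows the names, and with *mRpS30* and *mRpS18A* counted in the large subunit, as in mammals, it was 19 of 49 (38.8%) and 5 of 22 (22.7%). No mRpS gene was called lower by edgeR, and at an unadjusted p under 0.05 the number was likewise 0 with edgeR and with DESeq2. The small subunit genes were higher per length in both genotypes, with a median of 42.4 cRPKM in *Tj-Gal4* against 27.6 cRPKM for the large subunit, and of 51.7 against 39.3 cRPKM in the shRNA-labelled libraries. The summed CPM of the mRpS genes relative to that of the mRpL genes was 0.712 and 0.692 in *Tj-Gal4* and 0.641 and 0.646 in the shRNA-labelled libraries, so the ratio was lower in both shRNA-labelled libraries. With 2 libraries against 2, an exact two-sided permutation test cannot go below p = 0.333 for such a value.

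The genes were also split by origin, from general knowledge of the mammalian mitochondrial ribosome. Of 44 with a bacterial relative 12 were called higher (27.3%, near the 22.5% of all genes tested), with a median change (log2) of 0.33. Of 27 known from mitochondria alone 12 were called higher (44.4%) and 1 lower, with a median of 0.50. Within the large subunit the counts were 9 of 29 (31%) and 9 of 18 (50%), and within the small subunit 3 of 15 (20%) and 3 of 9 (33.3%). The higher share among proteins without a bacterial relative was thus seen in both subunits, though in the small subunit each class had 3 called genes. There the genes without a bacterial relative were longer, with a median of 1122 bp against 689 bp. Their median counts per base were 0.149 against 0.168 in the large subunit and 0.220 against 0.232 in the small. The difference in share, and the parts of length and read density in it, were not tested.

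The change was smaller in mRp genes that were more densely covered by reads. Among 38 mRp genes with a mean of 0.1 to 0.2 counts per base of merged exon, 19 were called higher (50%) with a median change (log2) of 0.52, against 36.2% and 0.29 for all genes tested of that density. Between 0.2 and 0.3 counts per base, 5 of 19 were called higher (26.3%) with a median of 0.26, against 12.6% and -0.01. Between 0.3 and 0.5 counts per base, none of 12 was called higher and *mRpL51* was called lower, with a median of -0.09 against -0.28. Of all genes tested in that range 2.31% were called higher and 24.3% lower, so few rises are usual there. At an unadjusted p under 0.05 these 12 included 2 higher by edgeR and 0 by DESeq2. In each of these 3 ranges the mRp median was above that of all genes, by 0.19 to 0.27 on the log2 scale. Between 0.05 and 0.1 counts per base lay 2 mRp genes, with a median of 0.43 against 0.46 for all genes tested. Of these mRp genes 0 were called, where 45.4% of all genes tested of that density were called higher.

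Across the 71 genes, log2 fold change and log2 counts per base had a Pearson r of -0.603 and a Spearman rho of -0.581. Across all 11163 genes tested these were -0.193 and -0.32. Both measures come from the same counts of the same 4 libraries and genes are not independent, so these values are descriptions. Of 1294 genes above 0.5 counts per base, none of them an mRp gene, edgeR called 0 higher and 18.2% lower, with a median of -0.42, and at an unadjusted p under 0.05 neither edgeR nor DESeq2 gave a higher one. If reads at the same position were counted once, differences and levels of densely covered genes are compressed. With counts converted from occupied positions to reads, 34 mRp genes were called higher and 1 lower (47.9% higher, against 27.1% of all genes), with a median of 0.46.

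**Figure D4:**
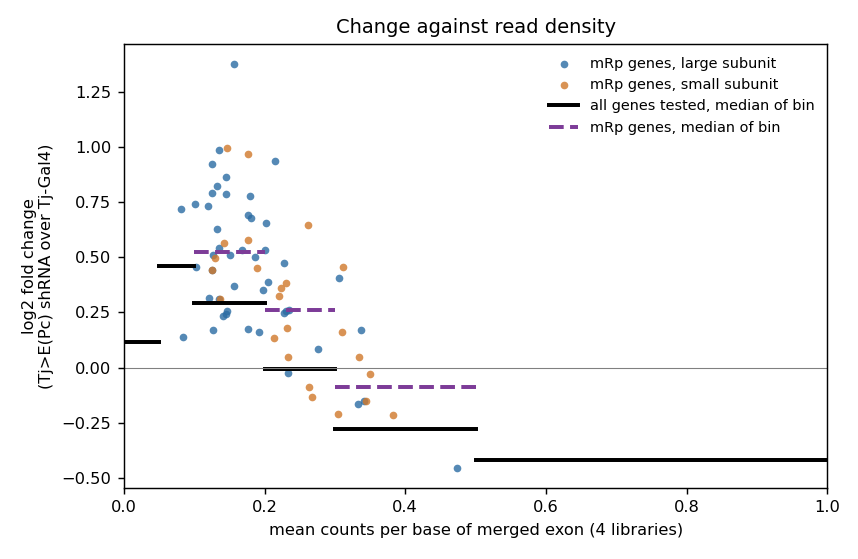
Log2 fold change of each mRp gene, shRNA-labelled libraries over Tj-Gal4, against its mean counts per base over the 4 libraries, with the median of all genes tested (black) and of mRp genes (purple, dashed) in each range of density. The mRp median falls from 0.52 at 0.1 to 0.2 counts per base to -0.09 at 0.3 to 0.5, and in each of the 3 ranges with more than 2 mRp genes it lies above the median of all genes.

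The RefSeq annotation lists an overlapping neighbour for 42 of the 71 genes, and counts of these are uncertain because the use of strand is not stated. *mRpL1* overlaps *nac*, *mRpS28* overlaps *CG10927*, *mRpS31* overlaps *mib1* and *mRpL48* overlaps *frtz*. Of the 42, 15 were called higher (35.7%) with a median change (log2) of 0.38, and of the 29 without a neighbour 9 were called higher (31.0%) with a median of 0.41. No mRp gene had the same counts as another gene in all libraries.

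The mitochondrial translation system reaches beyond the genes named mRp. *tko*, whose product is the S12 protein of the decoding centre and whose mutants in *Drosophila* are bang-sensitive, had 11.9 and 14.2 CPM in *Tj-Gal4* and 26.1 and 33.4 CPM in the shRNA-labelled libraries, a 2.24-fold rise (log2 1.17 ± 0.23, edgeR adjusted p = 0.0047). *bonsai*, which encodes the S15 protein, had 32.7 and 38.9 CPM against 47.7 and 57.5 CPM and rose by 0.54 ± 0.16 (log2, edgeR adjusted p = 0.0292), a call lost with DESeq2 (adjusted p = 0.158) and without *Tj-Gal4* 1 (edgeR adjusted p = 0.241). With them, a list of 48 other genes of mitochondrial gene expression held 24 called higher and 0 lower by edgeR, with a median change (log2) of 0.45, where 22.5% and 11.4% of all genes tested were called. At an unadjusted p under 0.05 edgeR gave 29 higher and 2 lower, and DESeq2 called 10 higher and 0 lower (13% and 6.49% of all genes). *GatC* and *PolG2* of this list have identical counts and cannot be told apart, and both are among the 24. *mtTFB1* and *SLIRP1* of this list, neither of them called, have the same counts as *Ccdc56* and *anox*, genes outside it.

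Of 14 synthetases that charge mitochondrial tRNAs, 7 were called higher, with a median change (log2) of 0.78. The amidotransferase subunits *GatA*, *GatB* and *GatC*, which convert mischarged glutamyl-tRNA, gave 2 called higher, *GatC* among them. *Slimp*, a relative of seryl-tRNA synthetase that does not charge tRNA, had 6.09 and 6.52 CPM in *Tj-Gal4* and 20.8 and 30.1 CPM in the shRNA-labelled libraries (log2 1.98 ± 0.29, edgeR adjusted p = 0.000997). *IleRS-m*, the isoleucine enzyme, had 5.45 and 6.75 CPM against 22.4 and 25.8 CPM (log2 1.95 ± 0.27, edgeR adjusted p = 0.00076). Of the 17 genes that handle mitochondrial DNA and RNA 7 were called higher, led by *mtDNA-helicase*, with 5.13 and 7.68 CPM against 17.8 and 18.6 CPM (log2 1.47 ± 0.29, edgeR adjusted p = 0.00453). Of 10 translation factors 5 were called higher. Over all genes tested the share called higher was 22.5%. By density it was 22% below 0.05 counts per base, 45.4% at 0.05 to 0.1, 36.2% at 0.1 to 0.2 and 12.6% at 0.2 to 0.3. The 48 listed genes lay between 0.0248 (*IleRS-m*) and 0.810 (*TrpRS-m*) counts per base, and their calls were not compared at equal density.

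Summed levels of the synthetases and of the translation factors did not follow the counts of calls. The 14 synthetases summed to 1690 and 1487 CPM in *Tj-Gal4* and 1391 and 1672 CPM in the shRNA-labelled libraries, and the translation factors to 994 and 897 CPM against 840 and 999 CPM. The genotypes overlapped in both of these sums, unlike the sum over the 71 mRp genes. Densely covered genes weigh heavily in both. *TrpRS-m*, at 0.810 counts per base, had 619 and 492 CPM against 332 and 518 CPM. *mEFTs*, at 0.727 counts per base, had 326 and 268 CPM against 188 and 287 CPM. The most densely covered mRp gene was at 0.474 counts per base, and the part of read density in this contrast was not tested. The 17 genes that handle mitochondrial DNA and RNA summed to 711 and 732 CPM against 915 and 903 CPM, without overlap. *tko* and *bonsai* summed to 44.6 and 53.1 CPM against 73.9 and 90.9 CPM, also without overlap.

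How many mRp genes were called depended on the method, while the shift of the median did not change direction. DESeq2 called 6 of 71 higher (8.45%), below its share of 13% over all genes tested, and 17 at an unadjusted p under 0.05. Without *Tj-Gal4* 1, edgeR called 4 (5.63% against 10.6%), *mRpL1*, *mRpL19*, *mRpL38* and *mRpS31*. Without *Tj-Gal4* 2 it called 13 (18.3% against 14.8%), and among the genes described by role *mRpL2*, *mRpL22*, *mRpL23*, *mRpS29* and *mRpS30* lost their calls. *mRpL22* was also lost without shRNA-labelled library 1 (edgeR adjusted p = 0.071), and *mRpL9* without shRNA-labelled library 2 (edgeR adjusted p = 0.101). In 12 of the 13 fits of all 4 libraries, DESeq2 being the exception, the share of mRp genes called higher was above that of all genes. The mRp median exceeded the median of all genes in all 13 and in all 4 settings that leave a library out, by 0.31 to 0.57 on the log2 scale.

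**Figure D5:**
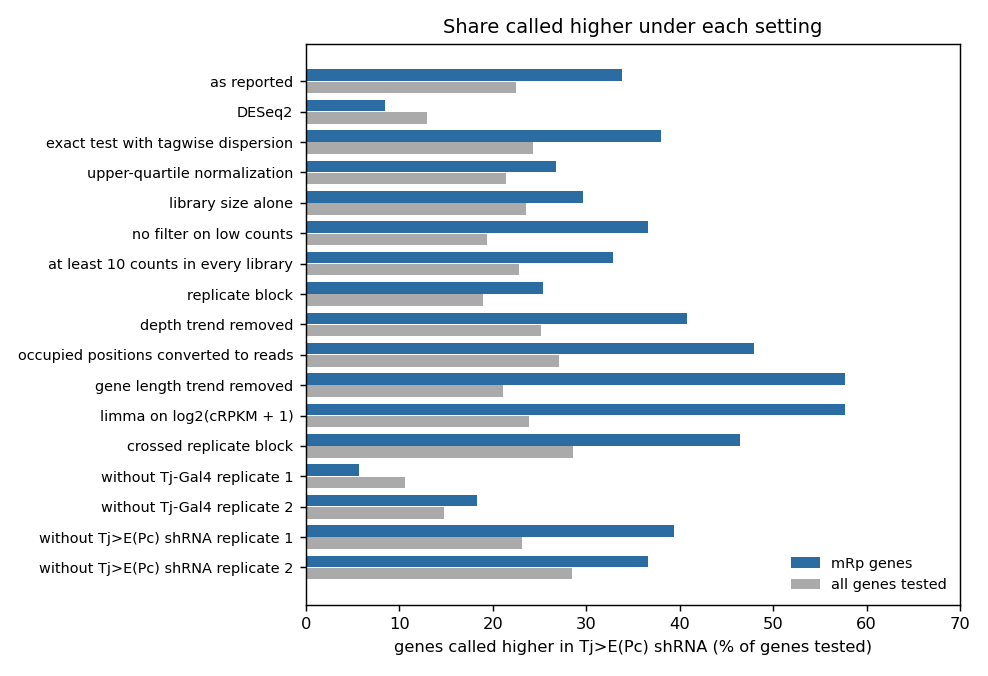
Percentage of mRp genes (blue) and of all genes tested (grey) called higher in the shRNA-labelled libraries, under each setting. The mRp share exceeds that of all genes as reported (33.8% against 22.5%) and in most other settings, and lies below it with DESeq2 (8.45% against 13%) and without Tj-Gal4 replicate 1 (5.63% against 10.6%).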

How the data were processed

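The authors aligned 50-nt single-end reads with Bowtie 0.12.7 to dm3, allowing a single alignment site, and deposited counts per gene over merged exons. Their methods state that reads over overlapping genes were shared between them, but the deposited counts are whole numbers. The authors also deposited RPKM values (cRPKM), computed from edgeR pseudo-counts, the merged transcript length and a common library size.

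Counts were tested in R 4.3.3 with edgeR 4.0.16, after a filter on low counts (filterByExpr, 11163 genes kept), with TMM factors, quasi-likelihood fit, Benjamini-Hochberg adjustment over all genes tested and calls at 0.05. The common dispersion was 0.0151. Standard errors are the log2 fold change divided by the square root of F. cRPKM values carry no call, since 2 libraries against 2 allow no exact two-sided permutation p under 0.333. Each library came from its own pair of testes. On simulated counts the test called 186 of 200 changed genes and 12 unchanged ones among 11136. These numbers are not split by size of change. Recovery of genes with a change near the mRp median (log2 0.39) was not tested.

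Members were taken by symbol alone. Earlier results of these data were known when the members and the other lists were chosen. Values in every library are given for the 6 largest rises and falls among called members. They are also given for the 5 highest and 5 lowest members by cRPKM in *Tj-Gal4*. Members of set roles follow (stalk, peptidyl transferase region, exit tunnel, *mRpS29*, *mRpS30* and the S18 paralogs), with *tko*, *bonsai* and *E(Pc)*. The last are the 3 other genes of mitochondrial gene expression with the largest called change. Overlapping neighbours come from a Release 6 RefSeq table, a later build than dm3.

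Alternatives were DESeq2 1.42.0, edgeR's exact test, upper-quartile normalization, library size alone, no filter, at least 10 counts in every library, a replicate block, removal of a depth or gene length trend (loess, span 0.3), conversion of counts as occupied positions (up to 0.98 of the length) to reads, limma 3.58.1 on log2(cRPKM + 1), an adjusted p under 0.01 and each library left out. A crossed replicate block was added after the data were seen.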

Additional observations from a re-analysis of the deposited data

How the results depend on the processing

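Of the 24 and 1 members called higher and lower, DESeq2 left 6 and 0, library size alone 21 and 0, and an adjusted p under 0.01 left 8 and 0. With a gene length trend removed the numbers were 41 and 0 and the median log2 fold change 0.51 (0.39 as reported), and with limma on log2(cRPKM + 1) they were 41 and 0. With each library left out in turn, 4 to 28 were called higher and 0 to 1 lower, with a median of 0.31 to 0.45, the fewest without *Tj-Gal4* 1. A lone remaining library is assumed there to vary like those of the other genotype. The cause of these differences was not tested.

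The genes that changed sign were uncalled before and after. *mRpS7* was at 0.0433 with library size alone, 0.0205 with the depth trend removed, 0.0479 with occupied positions converted and 0.066 with the length trend removed. *mRpL24* was at 0.0488, 0.0028 and 0.0541 with library size alone, occupied positions converted and the length trend removed. With the length trend removed *mRpS21* was at 0.0912 and *mRpS18C* at 0.13. With each library left out, *mRpS7* ran from -0.0582 to 0.0076, *mRpL20* from -0.0253 to 0.34, *mRpS18A* from -0.026 to 0.13, *mRpS16* from -0.031 to 0.14 and *mRpS6* from -0.0048 to 0.40.

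A replicate block gave 18 higher and 1 lower, and a crossed block 33 and 1. Within-genotype differences of replicates 1 and 2 had a correlation of -0.25 between genotypes across 11163 genes, and with 2 pairs the numbers are not shown to pair the libraries. Depth limits members such as *mRpL33*, with 9 counts in the shallowest library.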

Other observations

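By chromosome, the 11 mRp genes on X all had both shRNA-labelled libraries above both controls (48.5% of all X genes tested did), and 5 were called higher (45.5%, against 30.7% of all X genes tested), with a median log2 fold change of 0.58 against 0.21. The 12 on 2L gave 2 called higher (16.7%, against 18.5%) and *mRpL51*, called lower, with a median of 0.24 against -0.07. On 2R 4 of 12 were called higher (33.3%, against 21.8%) with a median of 0.47 against -0.05, on 3L 6 of 15 (40%, against 21.6%) with 0.33 against -0.01, and on 3R 7 of 21 (33.3%, against 22.2%) with 0.45 against -0.02. Differences between chromosomes were not tested for these genes.

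The study listed genes bound by E(Pc) in ChIP-seq that were higher in the knockdown, and 11 mRp genes are on that list (*mRpL2*, *mRpL9*, *mRpL22*, *mRpL32*, *mRpL37*, *mRpL39*, *mRpL41*, *mRpL44*, *mRpL48*, *mRpL49* and *mRpS29*). Here 10 of the 11, all but *mRpL44*, were called higher, with log2 fold changes of 0.47 to 0.93 over the 11. The list was chosen on these same libraries and is not independent evidence of direction. *mRpL51* is on the corresponding list of lower genes.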
